A study of Sus scrofa with 63 samples.

Results

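Gene expression in the jejunum of crossbred pig fetuses was compared with the level midway between their purebred parents' breeds at 110 days of gestation, a few days before birth. The comparison used 31 of the 63 fetuses of the series, 15 crossbred and 16 purebred, with 1 male fetus on each array. The purebred groups were 9 Large White (LW) and 7 Meishan (MS) fetuses. The crossbred groups were 9 LWMS fetuses, from a LW sire and a MS sow, and 6 MSLW fetuses, from a MS sire and a LW sow. LW is a European breed selected for lean growth, with high piglet mortality around birth, and MS is a Chinese breed whose piglets survive birth better. Semen of LW and MS boars was pooled for insemination, and a sow of either breed could therefore carry her own breed and a cross side by side. The remaining 32 fetuses were taken at day 90 in the same 4 genotypes and served here only to set the day 110 values against an earlier age. The labels do not name the sow, so litter mates were treated as independent samples, and the p-values may be too small if litter mates resemble each other.

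If each parental allele keeps its own breed's activity in the cross, the crossbred level is the mean of the parental levels. This is called additive expression. A crossbred level that departs from this mean is non-additive. It may lie near the higher or the lower parent, which is called dominance, or beyond both parents, which is called over- or underdominance. Heterosis is the same idea applied to traits such as growth or survival. The fetal jejunum is the part of the small intestine that must digest and absorb milk from the first hours of life, and late gestation is when its enterocytes gain their digestive enzymes and transporters.

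The contrast was the mean of the LWMS and MSLW group means minus the mean of the LW and MS group means, on the log2 scale after subtraction of each array's own 75th percentile (P75). A difference of 1 on this scale is a doubling of the signal relative to the midpoint. The same contrast is the mean of LWMS minus MS, between fetuses carried by MS sows, and MSLW minus LW, between fetuses carried by LW sows, so that the breed of the sow cancels. Markers of the labelled tissue were checked at day 110. KRT8, an epithelial keratin, had group means of 6.89 to 7.36 and EPCAM, an epithelial adhesion protein, of 5.56 to 5.80, and the mean of a list of skeletal muscle markers stayed between -1.70 and -0.30 in single fetuses. A list of pancreas genes ran from -2.64 to 1.88 in single fetuses. Several fetuses stood apart within their groups. LW fetuses 572, 575, 557 and 559, MS fetuses 623 and 632 and LWMS fetus 609 had low values for digestive genes, as given below, and results are also given without these 7, a comparison chosen after the data were seen that leaves 5 LW, 5 MS, 8 LWMS and 6 MSLW fetuses. Since the 7 were picked for low values in mostly purebred fetuses, leaving them out lowers the differences in digestive genes by construction. Genes known from the stomach were high in many of the same fetuses. TFF2, a trefoil peptide of gastric mucous cells, was at 6.74 to 9.46 in 6 of the 7, at -1.75 in MS 632, and at -1.87 to 9.17 (median -0.66) in the other 24, of which 8 were above 5. GIF, gastric intrinsic factor, had medians of 6.29 in the 7 and 1.01 in the 24, and GAST, the gastrin precursor, of 3.13 and -1.62. By group, TFF2 was above 5 in 6 of 9 LW, 2 of 7 MS, 4 of 9 LWMS and 2 of 6 MSLW fetuses. GIF was above 5 in as many fetuses of each group. The crossbred contrasts of these 3 genes were -0.46, -0.07 and -0.28 and none was called. These contrasts average LW with MS and so do not show that the groups were alike. The part of gastric-type tissue in the results below was not tested.

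Of 40515 probes tested, 80 (0.197%) differed from the purebred midpoint at an adjusted p under 0.05 (limma, Benjamini-Hochberg over all probes). The crossbreds were higher at 62 probes (0.153%) and lower at 18 (0.0444%). At an unadjusted p under 0.05 the number was 5445. The called probes carried 31 gene symbols on 51 probes, and 29 probes had no symbol in the tables used here. At no probe did the 15 crossbred fetuses lie wholly above or wholly below the 16 purebred fetuses (0%). The number of called probes depended strongly on single fetuses. It was 766 without LWMS 609 (455 higher and 311 lower), 268 without LW 670, 182 without MS 409, 174 without MS 407, 139 without LW 852, 129 without LW 854 and 124 without MS 401. It was 48 without MS 623, 49 without MS 627, 50 without LW 559, 50 without LW 575, 51 without MS 632, 51 without MSLW 688 and 52 without MSLW 481. Of the 80 probes, 40 were called whichever single fetus was left out. Without the 7 fetuses together 12 probes were called, all higher, and 10 of them were among the 80. Slides 1 to 4 held all 4 groups, and the contrast within each of them had the sign of the overall contrast on all slides with a value at 33 of the 62 higher and 8 of the 18 lower probes. These are the same arrays, so this shows the spread between slides and is no separate test.

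The probes that carry the largest differences are shown by the opening 30 of their 60 bases, because several genes below rest on 1 probe among many. Capitals mark bases that lie in a run of at least 20 shared with another probe shown or called here. The deposited files map none of these probes to a chromosome, and the genome build is not given in the sources used here.
MTFP1, 2 probes of the same sequence: AGTTGAACGGAAACTGAGAGATAATGACCT
A_72_P417829, no symbol: ttgaactctgggacacacgtcctgatatcc
TMOD3: acgccagcattttaaaacaggctactcaaa
AADAT, probe A_72_P487759: TAGACAACTTTTGAAGTGCCCTTAAACCAA
AADAT, probe A_72_P054381: taacTAGACAACTTTTGAAGTGCCCTTAAA
SELENOF, probe CUST_56_PI427286967: atgaaacagcacctagaaactcgtttgcct
CYP17A1, probe whose values are given below: cgccttctttttccaggctgcagcctggca
CYP17A1, probe A_72_P548186: AAGAAGATCCAGGATGCTATCGACCAGAAT
A_72_P116061, no symbol: ttctgcctctgtgctgaggAAGAAGATCCA
CD5L, probe A_72_P529278: TAACTGCACCCATGATGATGACATGTGTGT
AQP10, probe A_72_P442121: cctgaagtctcagccagagaaagtcctgct
TSKU, 2 probes of the same sequence: TTTTATAAAAGTTGTTGCCTTTTATAATGG

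The called probes fell into 3 kinds by where the crossbred mean lay. It was between the purebred means at 19 probes, above both at 43 and below both at 18. All 19 probes of the first kind were above the midpoint, and such a mean between the purebreds is nearer to the higher one by construction. The difference between MS and LW was called at each of the 19. It must exceed the called contrast at such probes, so these calls follow from how the probes were chosen. MS was the low breed at 15 and LW at 4. In 17 of the 19 the low breed was well above background on fewer than 75% of its arrays, and in 7 on none, so the low level is there a bound rather than a measurement. Against the higher purebred the crossbreds differed by -1.17 to -0.07 (log2, median -0.63), and this was called at 3 probes.

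The scale matters for these 19 probes. If a crossbred has exactly the mean of the 2 purebred signals on the linear scale, it lies above their midpoint on the log2 scale, and the more so the wider the breeds differ. Set against the linear midpoint, the crossbred signal at the 19 probes was 88.7% to 167% of it (median 124%), and 0 of the 19 were called when the midpoint was taken on the linear scale. At the 43 probes above both purebreds it was 142% to 1159% (median 197%), with 15 called, and at the 18 below both it was 53.8% to 75.5% (median 70.9%), with 10 called. The linear midpoint, added after the data were seen, called 28 probes in all, 25 of them among the 80.

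**Figure D1:**
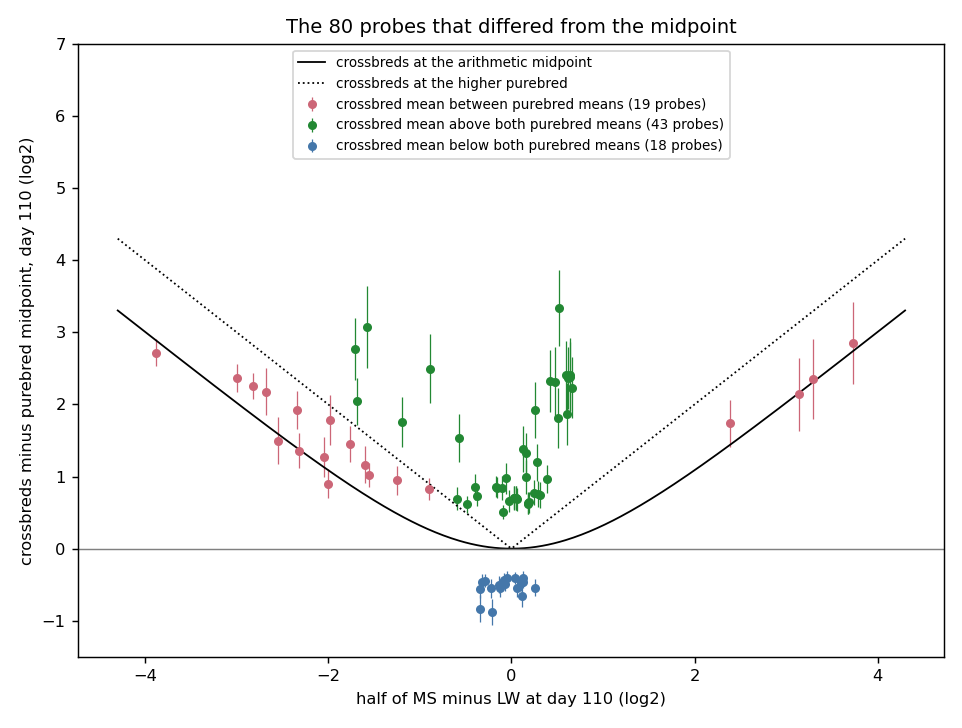
Crossbred minus purebred midpoint at day 110 (y, log2, bars are the standard error) against the distance of MS from that midpoint (x, log2) for the 80 called probes, of which 19 lie between the purebreds, 43 above both and 18 below both. The solid curve is where crossbreds at the linear midpoint would lie and the dotted line is where they would equal the higher purebred. Probes between the purebreds lie close to the solid curve, at 88.7% to 167% of the linear midpoint.

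The probe with the smallest p had no symbol, A_72_P417829. Its signal was 0.64 to 1.34 in LW fetuses (median 0.84) and not well above background on any of 7 MS arrays. In LWMS fetuses it ran from -1.34 to 0.41 (median -0.45) and in MSLW fetuses from -0.49 to 0.25 (median -0.09). Every crossbred fetus lay below every LW fetus and above every MS fetus. The contrast was 2.72 ± 0.18 (SE, adjusted p = 9.196e-17, limma), and the crossbreds were at least 32.45-fold above MS, whose level is a bound. The crossbred signal was 89.2% of the linear midpoint, so that on that scale the sign turned (-0.17).

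MTFP1, an inner membrane protein that takes part in mitochondrial fission, was next. In LW fetuses the signal was 0.43 to 1.75 (median 1.28) and in MS fetuses -4.98 to -3.89 (median -4.52), with 4 of 7 MS arrays well above background. LWMS fetuses lay between -0.16 and 1.74 (median 0.98), a range that overlapped LW. MSLW fetuses lay between -0.16 and 0.56 (median 0.25) in the 5 with a value, 1 spot having been set aside as an outlier. The contrast was 2.25 ± 0.18 (SE, adjusted p = 1.373e-13, limma), and the crossbreds reached 135% of the linear midpoint. The day 90 contrast, from other fetuses, was 1.25 (adjusted p = 2.262e-05).

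TMOD3, which caps the slow-growing ends of actin filaments, was again low in MS. LW fetuses were at -0.51 to 1.38 (median -0.17), MS fetuses at -5.06 to -3.54 (median -4.51), LWMS fetuses at -1.39 to 0.81 (median 0.41) and MSLW fetuses at -1.42 to 0.78 (median -0.22). Crossbred and LW fetuses overlapped and all lay above all MS fetuses. Within LWMS the values left a gap, with 4 fetuses between -1.39 and -0.81 and 5 between 0.41 and 0.81. The contrast was 1.92 ± 0.26 (SE, adjusted p = 4.899e-06, limma) at day 110 and 1.43 (adjusted p = 0.003758) at day 90. The crossbreds were at 144% of the linear midpoint.

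**Figure D2:**
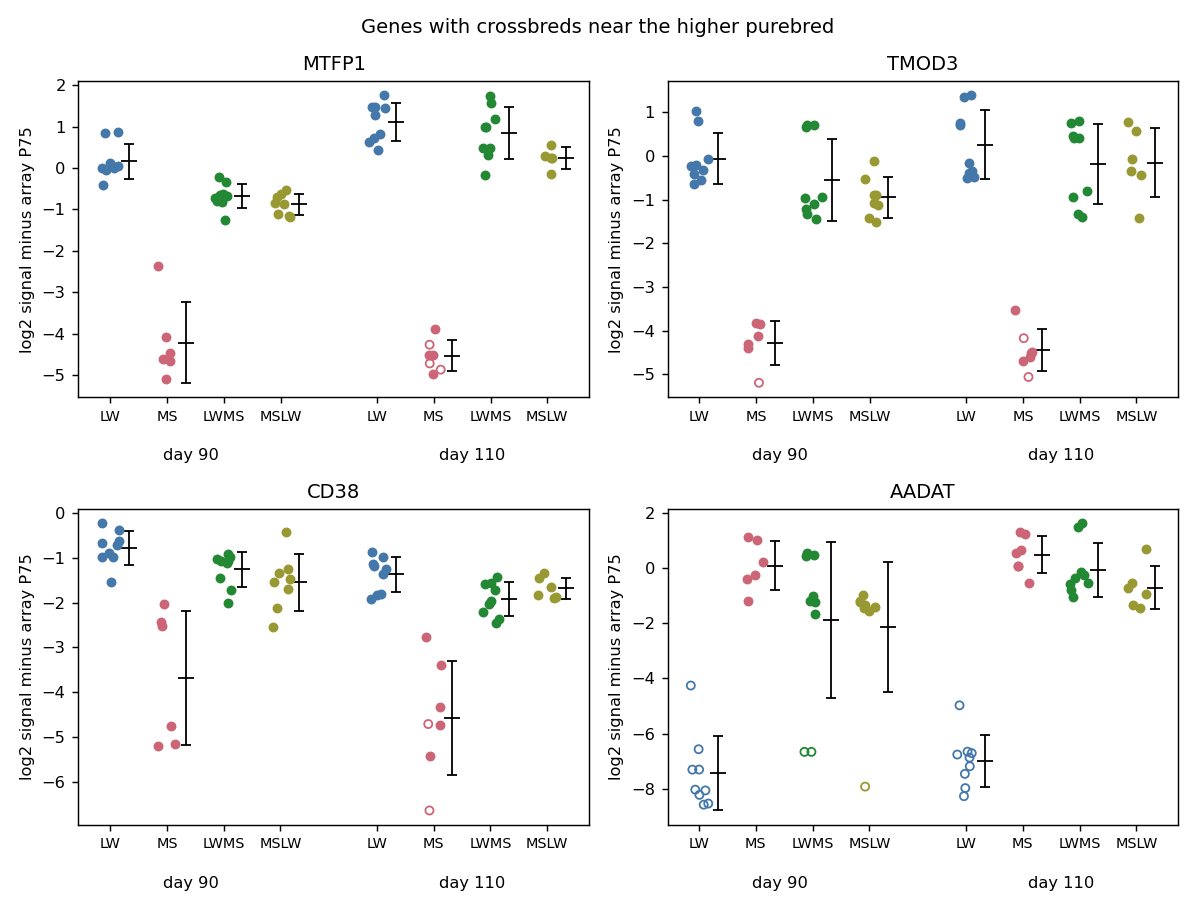
Log2 signal minus array P75 in each fetus of the 4 genotypes at day 90 and day 110 for genes whose crossbred mean lay between the purebred means and near the higher one. Filled points were well above background and open points were not, and bars are mean ± SD. For MTFP1 at day 110, LW ran from 0.43 to 1.75, MS from -4.98 to -3.89 and LWMS from -0.16 to 1.74.

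Further genes with a low MS level had smaller differences. STOM, an integral membrane protein of lipid rafts, was at -1.48 to 0.18 in LW (median -0.81), -3.34 to -1.95 in MS (median -2.40), -1.75 to -0.24 in LWMS (median -0.77) and -0.91 to -0.68 in MSLW (median -0.74). Both crosses thus lay within or near the LW range and above every MS fetus, with a contrast of 0.82 ± 0.15 (adjusted p = 0.003487, limma) and 147% of the linear midpoint. CD38, an enzyme that breaks down NAD, had medians of -1.25 in LW, -4.71 in MS, -1.96 in LWMS and -1.74 in MSLW, and its contrast was 1.17 ± 0.26 (adjusted p = 0.02446). SLC4A7, a sodium bicarbonate cotransporter, had medians of -0.77, -4.45, -1.67 and -1.99 in the same order and a contrast of 1.27 ± 0.28 (adjusted p = 0.02418). GBP4, an interferon-induced guanylate-binding protein, had medians of 0.59, -1.47, 0.38 and 0.60 and a contrast of 0.95 ± 0.20 (adjusted p = 0.01331), while the other GBP4 probe was at 0.46 and was not called. Both CD38 and SLC4A7 had MS arrays below background, 2 of 7 for CD38 and 4 of 7 for SLC4A7.

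METTL7B, a membrane-bound methyltransferase, resembled these genes although its crossbred mean was slightly above LW. LW fetuses ran from -1.44 to 1.39 (median 0.30), MS from -6.55 to -1.34 (median -2.93), LWMS from 0.13 to 1.43 (median 0.96) and MSLW from -1.25 to 1.17 (median 0.16). All crossbred values lay above all MS values and within or near the LW range. The contrast was 2.04 ± 0.32 (SE, adjusted p = 0.0002108, limma), and the day 90 contrast of 1.41 did not pass (adjusted p = 0.07022).

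AADAT, an aminotransferase of the kynurenine and lysine pathways, was low in LW rather than in MS. No LW array was well above background at probe A_72_P487759. MS fetuses were at -0.54 to 1.31 (median 0.53), LWMS fetuses at -1.07 to 1.63 (median -0.35) and MSLW fetuses at -1.46 to 0.69 (median -0.83). All 15 crossbred fetuses were above all LW fetuses and overlapped MS. The contrast was 2.86 ± 0.57 (adjusted p = 0.007537, limma), with crossbreds at least 20.25-fold above LW and at 112% of the linear midpoint. Probe A_72_P054381, which shares a run of 30 bases with it, gave at least 11.11-fold. At day 90 probe A_72_P487759 was well above background in 7 of 9 LWMS and 7 of 8 MSLW fetuses. The lowest value was -6.66 in LWMS and -7.92 in MSLW, and the day 90 contrast was 1.66 (adjusted p = 0.9315, limma).

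For SELENOF, a selenoprotein of the endoplasmic reticulum, only 1 probe among several departed. It gave 2.36 ± 0.55 (adjusted p = 0.04422, limma) at probe CUST_56_PI427286967, where LW was well above background on 2 of 9 arrays, and -0.13 to 0.02 at the other 5. The SELENOF probes did not move together, and the gene's level as a whole cannot be read from the departing probe.

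The 43 probes above both purebreds included 12 symbols, and their purebred groups were spread widely. Of the 43, 33 were called against LW and 17 against MS, counts that each include the 7 called against both. The contrast that chose these probes is the mean of the same 2 differences. CYP17A1, the enzyme that turns pregnenolone and progesterone into precursors of cortisol and sex steroids, had the largest difference among called probes. LW fetuses ran from -8.12 to -1.995 (median -3.71, 4 of 9 well above background) and MS fetuses from -7.86 to -0.60 (median -2.45, 5 of 7). LWMS fetuses ran from -4.25 to -0.23 (median -0.96) and MSLW fetuses from -0.52 to 1.57 (median 0.39), all of them well above background. Every MSLW fetus lay above every LW and every MS fetus, and LWMS overlapped MS. The contrast was 3.34 ± 0.53 (SE, adjusted p = 0.0002108, limma), and the crossbreds were called against LW (3.86) and against MS (2.83). Because 5 LW and 2 MS values were not well above background, the size is uncertain, and it was 1.95 with normexp background correction and 1.92 without the 7 fetuses (adjusted p = 0.00102), called in each case. LWMS minus MSLW was -1.87, which did not pass (adjusted p = 0.2899). The 4 CYP17A1 probes were all higher in crossbreds, by 1.18 to 3.34, and 3 were called. The unnamed probe A_72_P116061 (1.39, adjusted p = 0.03464), printed above, shares 41 bases with CYP17A1 probe A_72_P548186. At day 90 CYP17A1 was well above background on no LW or MSLW array, on 1 of 9 LWMS arrays and on 2 of 6 MS arrays.

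CD5L, a secreted scavenger protein made mainly by macrophages, was higher in crossbreds at all 5 of its probes, by 2.31 to 2.41, and all 5 were called. LW fetuses ran from -3.36 to 2.98 (median 0.01), MS from -1.81 to 3.15 (median 1.32), LWMS from 0.04 to 3.44 (median 2.93) and MSLW from 1.81 to 4.62 (median 3.19). The groups overlapped, with low fetuses in both purebreds and 1 in LWMS. The contrast at probe O9298 was 2.41 ± 0.51 (SE, adjusted p = 0.01434, limma) and was -0.71 at day 90. It was 1.34 without the 7 fetuses and did not pass (adjusted p = 0.6017). The other macrophage genes did not follow: of 10 tested in a list of macrophage markers, 9 were lower and none was called, CD163 being at -0.53. AQP10, a channel for water and glycerol, was higher at all 3 of its probes, by 2.50 to 3.07, and all 3 were called. LW fetuses ran from -0.45 to 5.38 (median 3.56), MS from -5.53 to 4.20 (median 0.17), LWMS from 2.47 to 5.41 (median 4.96) and MSLW from 3.34 to 5.36 (median 4.59). The LW and crossbred ranges overlapped at the top, and values below 2.47 came from purebreds alone. The contrast was 3.07 ± 0.57 (SE, adjusted p = 0.003115, limma) and was 0.11 at day 90. With the 7 fetuses left out it was 1.41 and did not pass (adjusted p = 0.1375), while AQP10 probe O14058, at 1.91, was called (adjusted p = 0.004629).

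The low purebred values of CYP17A1, CD5L and AQP10 came from the same fetuses. LW 572, 575, 557 and 559 were the 4 lowest LW fetuses for each of the 3 genes, MS 623 and 632 the 2 lowest MS fetuses, and LWMS 609 the lowest LWMS fetus. TSKU is a secreted leucine-rich protein that binds growth factors. Its LW signal was 2.03 to 3.54 (median 2.61), MS 1.64 to 2.81 (median 2.42), LWMS 2.98 to 4.59 (median 3.46) and MSLW 2.30 to 3.72 (median 3.39). LWMS lay wholly above MS, and the other ranges overlapped. The contrast was 0.86 ± 0.14 (SE, adjusted p = 0.0005759, limma), the crossbreds were called against each purebred, and they reached 181% of the linear midpoint. The TSKU contrast was 0.67 (adjusted p = 0.1351) without the 7 fetuses. Called whichever single fetus was left out, and under every planned change of processing in which they were tested, were 10 probes. They were those of TSKU, CYP17A1, MTFP1, METTL7B, TMOD3, STOM, 1 AQP10 probe and A_72_P417829. The linear midpoint, the floor and leaving out the 7 fetuses were not among the planned changes. STOM (0.65, adjusted p = 0.1618, limma) and both TSKU probes were not called without the 7 fetuses. Without the 7 fetuses 3 of the 43 probes above both purebreds were called, and the median of the 43 was 0.67 in place of 0.98, all with the same sign. Of the 19 probes between the purebreds 7 were called, with a median of 1.48 in place of 1.74.

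**Figure D3:**
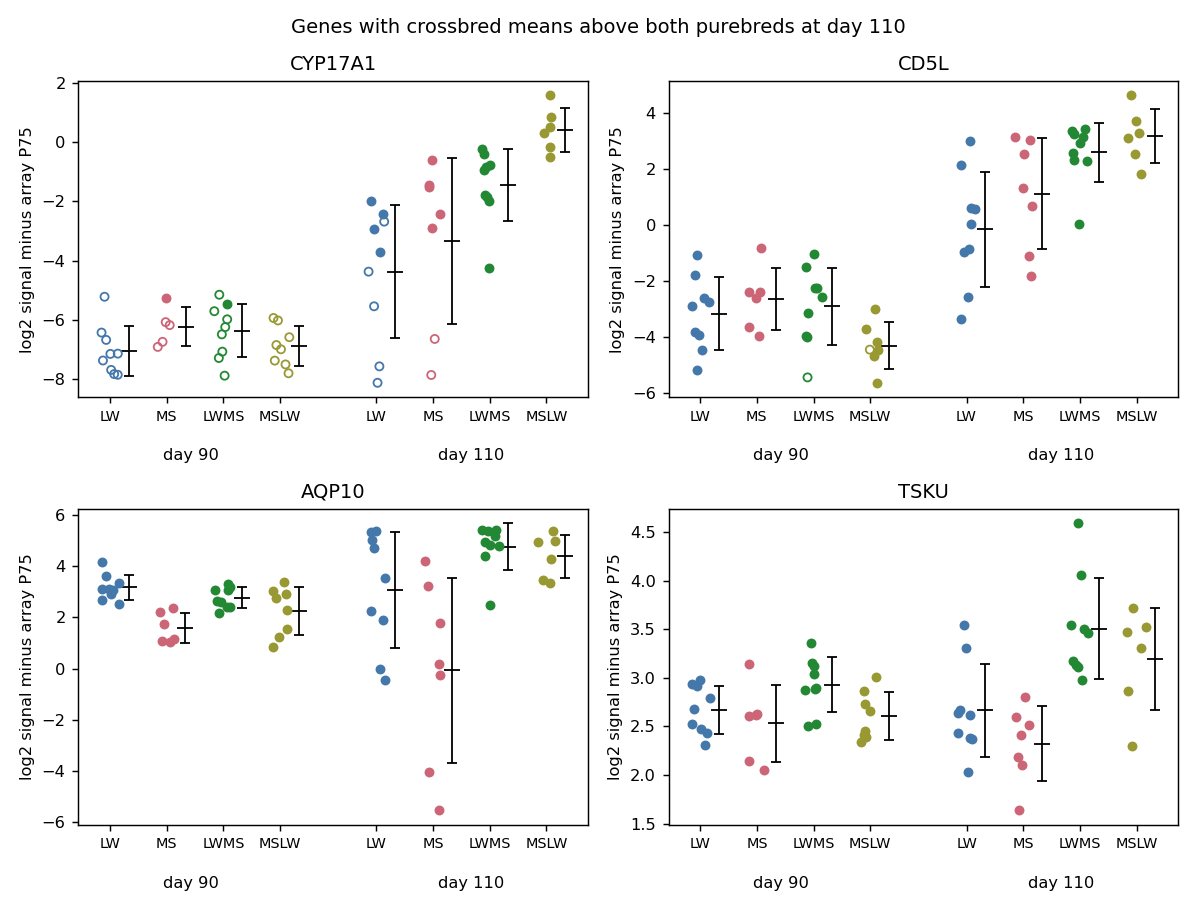
Log2 signal minus array P75 in each fetus at day 90 and day 110 for CYP17A1, CD5L, AQP10 and TSKU, with filled points well above background, open points not, and bars giving mean ± SD. At day 110 the purebreds spread widely for CYP17A1, CD5L and AQP10, and the 15 crossbreds lie high except LWMS 609.

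Other genes above both purebreds had differences under 1. GLRX, a glutaredoxin that reduces protein disulfides, was higher by 0.84 (adjusted p = 0.006645, limma) and by 0.42 to 0.84 over 5 probes. LPIN2, a phosphatidate phosphatase of triglyceride synthesis, was higher by 0.51 ± 0.10 (adjusted p = 0.006645), and like GLRX it was called against each purebred. ALDH2, the mitochondrial aldehyde dehydrogenase, was called at 5 of 11 probes, by 0.68 to 0.71, and was higher by 0.59 to 0.69 at the other 6. At ALDH2 probe O10280 the group medians were 4.17 in LW, 4.503 in MS, 5.06 in LWMS and 5.02 in MSLW. SCARB1, a receptor for high-density lipoprotein, was called at 3 of 6 probes, which hold 1 sequence (0.63 ± 0.15, adjusted p = 0.04378). TM6SF1, a lysosomal membrane protein, RBP7, a retinol-binding protein, and SLC46A1, the intestinal folate transporter, were higher by 0.78, 0.99 and 0.74. The other SLC46A1 probe was at -0.31, so its direction differed between probes. RBP7 was called at 1 of 3 probes, the others being at -0.02 and 0.86, and that call was lost in 10 of 14 other settings. With 1 fetus left out at a time, SLC46A1 and SCARB1 each lost the call in 20 of 31 fits at their brightest probe. ALDH2 lost it in 17 and TM6SF1 in 13. Among probes without a symbol here, A_72_P206537 (1.32), A_72_P340278 (1.76) and the pair of identical sequence A_72_P387033 and A_72_P485451 (1.81 and 1.87) were higher.

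The 18 probes below both purebreds had small differences and tight groups. TUBE1, a tubulin of the centriole, was at -1.77 to -1.09 in LW (median -1.37), -2.41 to -1.72 in MS (median -2.01), -2.60 to -1.97 in LWMS (median -2.34) and -2.54 to -1.64 in MSLW (median -2.10). LWMS lay wholly below LW and overlapped MS. The contrast fell by 0.44 ± 0.09 (SE, adjusted p = 0.005051, limma), and all 4 TUBE1 probes were lower. SOSTDC1, a secreted antagonist of BMP and Wnt signalling, fell by 0.66 ± 0.15 (adjusted p = 0.04422), from medians of -1.28 in both purebreds to -1.80 in LWMS and -1.99 in MSLW. ERCC6L, a DNA translocase of mitotic centromeres, fell by 0.56 ± 0.13 (adjusted p = 0.03464), and PDF, the mitochondrial peptide deformylase, fell by 0.55 ± 0.13 (adjusted p = 0.04965). TUBE1, SOSTDC1, ERCC6L and PDF were the 4 genes called lower by their brightest probe, out of 21 of 10633 genes (0.197%). When 1 fetus was left out at a time, PDF lost the call in 22 of 31 fits, SOSTDC1 in 18, ERCC6L in 13 and TUBE1 in 0.

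Further lower genes were called at another of their probes. EID1, an inhibitor of the acetyltransferases p300 and CBP, was called at 3 of 4 probes. At EID1 probe A_72_P544442 the medians were 0.20 in LW, 0.40 in MS, -0.08 in LWMS and -0.20 in MSLW. DCN, a small proteoglycan that binds collagen fibrils, fell by 0.49 at its called probe and was lower at all 6, by -0.49 to -0.27. TIMP1, an inhibitor of matrix metalloproteinases, fell by 0.44 and was lower at all 5 probes. The lower calls were sensitive to scaling, since 1 of them was left when arrays were centred on their median, with 38 higher. None of the 18 was called (0 probes) without the 7 fetuses, and their median was -0.41 in place of -0.49, all with the same sign. LARP6 (-0.48, adjusted p = 0.05082) and KRT19 (-0.65, adjusted p = 0.06955), 2 of the genes next in order of p, were just outside the threshold.

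Beyond single calls, lists of genes with a known role in the fetal intestine were counted, with each gene read from its brightest tested probe. Over all 10633 genes the median contrast was -0.01, 7.74% were higher and 7.68% lower at an unadjusted p under 0.05. Most list differences were smaller without the 7 fetuses named above, as given after them. In a piece of jejunum, fewer cells of a type and less RNA per cell cannot be told apart. Of 16 genes for digestion at the brush border, the enzyme-bearing surface of the enterocyte, all 16 were higher in crossbreds, 12 of them at an unadjusted p under 0.05, with a median of 0.93, and 0 were called after adjustment. LCT, the lactase that splits milk sugar, was at group medians of 4.60 in LW, 4.97 in MS, 5.55 in LWMS and 5.24 in MSLW, a contrast of 1.33 (adjusted p = 0.09217, limma). ALPI, the intestinal alkaline phosphatase, was at 1.53, MME, a neutral endopeptidase, at 1.35, TMPRSS15, the enteropeptidase that activates trypsinogen, at 1.80, and SI, sucrase-isomaltase, at 0.71. None of these 4 passed after adjustment.

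Uptake and lipid genes lay in the same direction. Of 11 transporters of sugars and amino acids, 10 were higher (9 at an unadjusted p under 0.05, median 0.77), among them SLC5A1, the sodium-glucose cotransporter (1.05), SLC2A2, a glucose and fructose carrier (1.25), and SLC15A1, the peptide transporter (1.16). Of 18 genes of lipid absorption, 15 were higher (11 at that p, median 0.61). SCARB1 was the 1 called, and APOB, the core protein of chylomicrons, was at 1.43 (adjusted p = 0.08899), APOA4 at 1.57 and FABP2 at 1.26. CD36, a fatty acid receptor (-0.63), and PLIN2, which coats lipid droplets (-0.43), were lower. Of 11 genes of gluconeogenesis and fructose use, 10 were higher (7 at that p, median 0.67), with G6PC at 1.09 and FBP1 at 0.97. Of 16 genes of endocytosis and the lysosome, through which the fetal enterocyte takes up whole proteins, 16 were higher (8 at that p, median 0.38), with AMN, a partner of cubilin, at 1.07 (adjusted p = 0.07272) and DAB2, an endocytic adaptor, at 0.78. Of 24 genes for xenobiotics and bile acids, 20 were higher (8 at that p, median 0.25), CYP3A29 being at 1.48. Apart from SCARB1, 0 genes of these 5 lists were called after adjustment. For each cross against the midpoint, the LWMS and MSLW medians were 0.87 and 0.83 for transport and 0.72 and 0.56 for lipid absorption. For endocytosis and the lysosome they were 0.47 and 0.38. The crosses lay further apart for gluconeogenesis and fructose use (0.85 and 0.23) and for xenobiotics and bile acids (0.49 and 0.18). Differences between the crosses were not tested for lists.

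**Figure D4:**
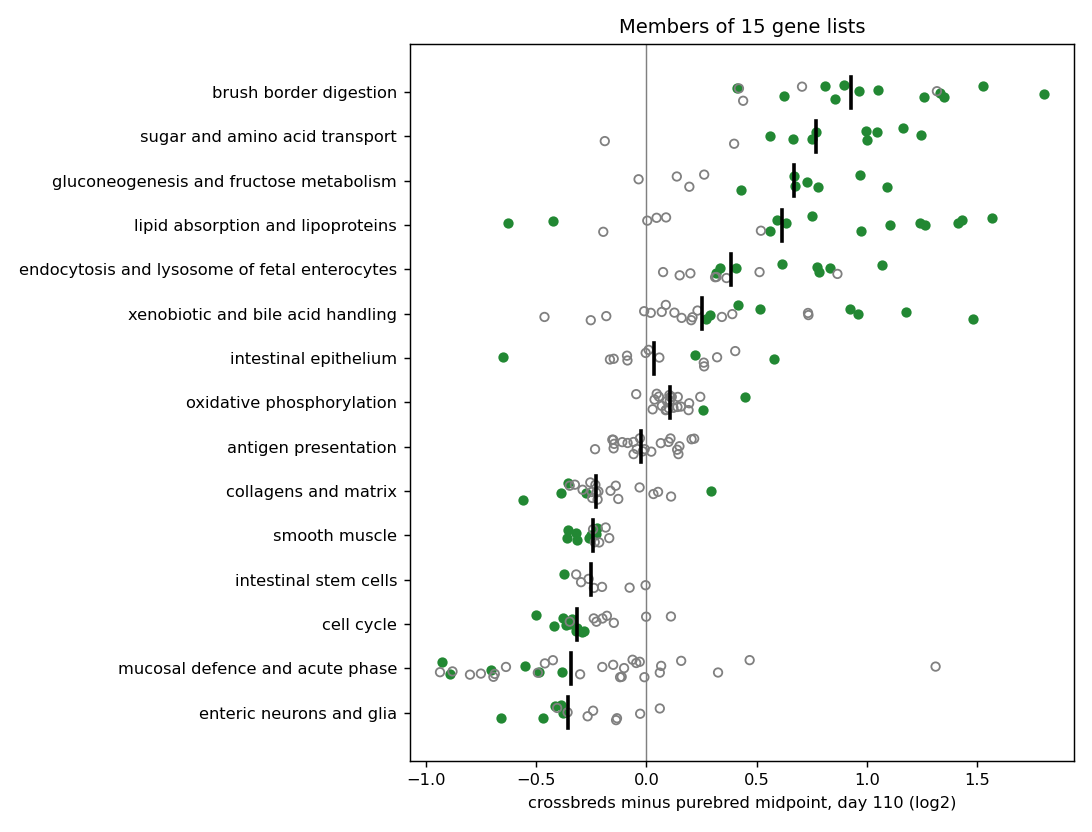
Crossbred minus purebred midpoint at day 110 (x, log2) for each tested gene of 15 lists, with filled green points at an unadjusted p under 0.05 and a black line at each list's median. All 16 brush border genes lie above 0 (median 0.93) and all 13 smooth muscle genes below 0 (median -0.24).

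Lists of proliferating, muscular and neural genes lay on the other side. Of 19 cell cycle genes 18 were lower (11 at an unadjusted p under 0.05, median -0.31), with CDK1, the mitotic kinase, at -0.37 and PLK1 at -0.50. All 13 smooth muscle genes were lower (8 at that p, median -0.24), TAGLN being at -0.36. Of 13 genes of enteric neurons and glia 12 were lower (5 at that p, median -0.36, and -0.21 without MS 632), with NEFM, a neurofilament, at -0.66. All 8 intestinal stem cell genes (1 at that p, median -0.25), 18 of 22 collagens and matrix genes (4 lower and 1 higher at that p, median -0.23, and -0.12 without MS 632) and 26 of 32 genes of mucosal defence (6 at that p, median -0.34) were lower. None of the genes in the cell cycle, smooth muscle, neural, stem cell and mucosal defence lists was called, nor were matrix genes by their brightest probe. For LWMS and MSLW against the midpoint, the medians were -0.38 and -0.18 for cell cycle genes and -0.14 and -0.48 for mucosal defence. They were closer for smooth muscle (-0.26 and -0.27), neural (-0.32 and -0.32), stem cell (-0.14 and -0.19) and matrix genes (-0.18 and -0.22). Genes marking the epithelium as a whole were split, 8 of 14 higher with a median of 0.03, and KRT8 and EPCAM belong to them. Antigen presentation was level, with 0 of 22 genes at an unadjusted p under 0.05 in either direction. Oxidative phosphorylation was higher in 22 of 23 genes, with a median of 0.11 and 2 at that p.

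Purebred fetuses spread more widely than crossbreds for the brush border list. The mean level of the 16 brush border genes ran from -0.91 to 2.62 in LW fetuses (median 1.86), from -1.39 to 3.01 in MS (median 2.56), from 1.27 to 3.06 in LWMS (median 2.93) and from 1.76 to 2.69 in MSLW (median 2.52). The highest purebred fetuses thus reached the crossbred level, and the medians of MS and MSLW were close. The lowest fetuses were those named above, LW 575, 572, 559 and 557, MS 632 and 623, and LWMS 609 as the lowest crossbred. The same 4 LW fetuses had the highest LW means for smooth muscle and for cell cycle genes. The smooth muscle list ran from 4.14 to 5.26 in LW and from 3.95 to 5.06 in LWMS, with LWMS 609 highest. MS 632, which was at 5.12 for smooth muscle, was lowest of the MS fetuses for cell cycle genes (-0.92). Leaving out each fetus in turn, the median of the brush border list lay between 0.70 (without MS 632) and 1.06.

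Most list differences were much smaller without the 7 fetuses together. The brush border median was 0.13, with 11 of 16 genes higher and 1 at an unadjusted p under 0.05, and LCT was at 0.44 (adjusted p = 0.9225, limma). The medians were 0.21 for sugar and amino acid transport, 0.11 for gluconeogenesis and fructose use, 0.04 for lipid absorption, -0.02 for endocytosis and the lysosome and 0.03 for xenobiotics and bile acids. On the other side they were -0.09 for smooth muscle, -0.05 for enteric neurons and glia, -0.03 for stem cells and 0.08 for collagens and matrix, and oxidative phosphorylation was at -0.05. Cell cycle genes kept more of their difference, with 19 of 19 lower, 6 at an unadjusted p under 0.05 and a median of -0.21. Mucosal defence was at -0.24 with 24 of 32 lower. The macrophage list had a larger difference than with all fetuses, at a median of -0.34 in place of -0.16. In it 9 of 10 genes were lower, 5 at that p in place of 2, and none was called. With all fetuses, the macrophage median against the midpoint was 0.01 for LWMS and -0.29 for MSLW. SCARB1 was not called, and CYP17A1 and GBP4 were the list genes still called.

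**Figure D5:**
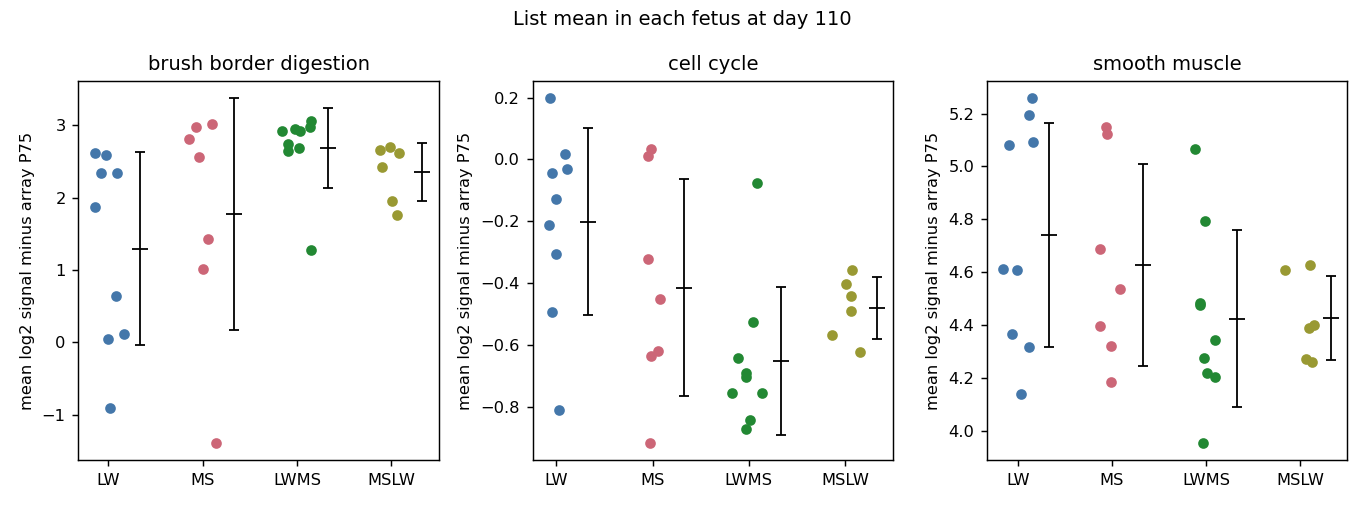
Mean log2 signal minus array P75 of the brush border digestion, cell cycle and smooth muscle lists in each fetus at day 110, with bars at mean ± SD. For brush border genes the crossbred fetuses sit together near the upper end (1.27 to 3.06), and the lowest values, down to -1.39, belong to purebred fetuses.

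The largest axis of variation among the 31 day 110 fetuses showed the same spread. The leading principal component of 38373 probes held 30.71% of the variance. Scores ran from -115 to 55.2 in LW, from -139 to 89.3 in MS, from -63.6 to 98.9 in LWMS and from -40.0 to 76.5 in MSLW. The crossbreds exceeded the midpoint by 39.1, which was not beyond the spread between fetuses (permutation test, two-sided, p = 0.106, 100000 resamples). TFF2 and GIF were among the genes with the largest loadings, opposite in sign to MEP1A, a brush border protease. Probes well above background made up more of the array in crossbreds, by 4.03 percentage points (permutation p = 0.0682), at 51.3% to 71.5% in LW, 59.7% to 71.1% in MS, 60.4% to 72.2% in LWMS and 56.5% to 80.4% in MSLW. Its part in the differences was not tested.

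At day 90 the same contrast called 18 probes (0.0444%), all higher in crossbreds. Of the 19 day 110 probes between the purebreds, 7 were called at day 90 as well and all 19 had the same sign there, with a median contrast of 1.74 at day 110 and 1.14 at day 90. Of the 43 probes above both purebreds 0 were called at day 90 and 31 had the same sign, with medians of 0.98 and 0.10. For the 18 probes below both the medians were -0.49 and -0.10, 0 were called at day 90 and 17 had the same sign. Fetuses of the 2 ages are different animals, so these are separate measurements. At the 19 probes the scale limits what the shared sign means. Crossbreds at the linear midpoint would lie above the log2 midpoint at any age at which the breeds differ. Against the linear midpoint 0 of the 19 were called at day 110, and it was not taken at day 90. The difference between the ages was tested directly and called 0 of 40515 probes (0%), with 2901 at an unadjusted p under 0.05. Its smallest p-values belonged to CYP17A1 (3.33, adjusted p = 0.5259, limma), CD5L (3.12, adjusted p = 0.5259), MTFP1 (1.003), HELQ, a DNA helicase (-0.50), AQP10 (2.96) and TM4SF4, a membrane protein of the tetraspanin-like family (1.12), the last 4 at an adjusted p of 0.6836. The medians of the brush border list were 0.93 at day 110 and 0.04 at day 90.

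Each purebred was also compared with the crossbreds by itself. Crossbreds minus LW called 2973 probes (7.34%) and crossbreds minus MS 621 (1.53%), comparisons that share the 15 crossbred fetuses and rest on 9 LW and 7 MS fetuses, while MS minus LW called 4153 (10.3%). The count against LW was 4462 without LW 852, 1903 without MSLW 688, 1468 without LW 572, 1449 without LW 557, 1363 without LW 575 and 1271 without LW 559. Beyond both purebreds in the same direction, with both differences called, were 12 probes (0.0296%), 7 above and 5 below. That number rested on single fetuses. It was 55 without LWMS 609, 26 without MS 409, 23 without MS 407, 23 without LW 670, 21 without LW 469, 21 without LW 852 and 19 without MS 401, and it was 4 without LW 559, 5 without LW 572, 5 without LW 575, 6 without LW 557 and 7 without MSLW 481. Without the 7 fetuses together it was 0 (157 with both unadjusted p under 0.05), with 271 probes called against LW and 337 against MS. Between the reciprocal crosses, which differ in the breed of the sow and of the sire, 264 probes (0.652%) were called, and 0 of them were among the 80. This count was 172 without LWMS 633, 160 without MSLW 851 and 156 without MSLW 578. The 80 probes were thus not called for a difference between LWMS and MSLW, which does not show that the crosses were alike at them.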

How the data were processed

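Total RNA of the middle jejunum of 63 male fetuses was labelled with Cy3 and hybridised to custom porcine Agilent arrays, 1 fetus per array on 8 slides. Per the file headers and the submitters' processing notes, the authors extracted spot intensity values with Agilent Feature Extraction 10.10.1.1, whose processed signal is background-subtracted. Their deposited value table holds log2 values of 39446 probes, each array with a median of 8.61. It correlated with the scanner values at 0.989 to 0.997 and was used as an alternative.

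Here the processed signal was put on the log2 scale and the 75th percentile of each array was subtracted, control and outlier spots being left out. Probes of the same name were averaged. Of 60305 probes, 40515 were tested, a probe entering when 1 or more groups had it well above background on 75% or more of their arrays. No spot was saturated. The means of 8 groups (genotype by age) were fitted over all 63 arrays with limma 3.58.1 in R 4.3.3, and p-values were adjusted over all tested probes by the Benjamini-Hochberg method, with calls at an adjusted p under 0.05. The study modelled the sow as a random effect, which the labels do not give. P-values measure the spread between fetuses of a group, whose median SD at day 110 was 0.363 to 0.451, and the number of arrays limits the precision. No 2 arrays of a group were close enough to be 1 library. Lower bounds on folds took, per array, the higher of the dim probe's signal and the lowest signal among probes well above background.

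Genes were named from the array's symbols and accessions through NCBI tables (27362 of 60305 probes with a symbol) and read from the tested probe with the highest mean signal. The genes named were the 12 largest rises and falls among called genes (filled by smallest p where fewer passed), the 6 smallest p-values of the age difference and up to 4 per list, and called probes that others of their gene or class turn on were added. The members and lists were chosen with earlier results of these data known. The fit was tested on simulated data. Alternatives changed the threshold, background correction, scaling, filter, variance model, slide, array weights, value table and fetuses entered.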

Additional observations from a re-analysis of the deposited data

Results flagged for a closer look

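In 8 of 104 sets of gene and group at day 110, the lowest or highest fetus stood apart from its group by Dixon's criterion, which chance meets in about 1 in 20 sets. In 5 of them this was LWMS fetus 609. Its log2 signal relative to P75 was -4.25 for CYP17A1 (next lowest -1.98), 0.0391 for CD5L (next 2.28), 2.47 for AQP10 (next 4.41) and -1.75 for STOM (next -0.99), and it was 1.59 for PSIP1, a chromatin-bound coactivator (next highest 1.16). In 2 sets it was MS fetus 632, at -3.74 for GBP4 (next lowest -1.93) and 1.24 for TM4SF4 (next 3.68). In 1 set it was LW fetus 469, at -4.97 for AADAT, above the other LW fetuses (next -6.65), although not well above background. Without LWMS 609 the number of called probes was 766 in place of 80, and why this fetus stood apart was not tested.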

How the results depend on the processing

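The number of probes called at day 110 (80) ranged widely, and its cause was not tested where no construction shows it. With an adjusted p of at most 0.01 and a log2 difference of at least 0.5 it was 32 (31 higher, 96.9% against 77.5% for the 80). Array weights gave 560 (352 higher, 62.9%), the authors' processed values 138, median centring 39 (38 higher, 97.4%), no filter 50, a filter on all arrays 29 (65.5% higher), day 110 fetuses alone 26 (25 higher, 96.2%), leaving out LW 484 and 469 together 125, the linear midpoint 28, and leaving out the 7 fetuses that stood apart 12 (all higher). With slide as a block it was 82, with quantile normalization 93 and with normexp 63. The linear midpoint turned 4 probes, A_72_P417829 (-0.17), A_72_P378723 (-0.0152), A_72_P034061 (-0.17) and 1 other (-0.0765). Without 1 fetus at a time, counts ran from 48 to 766 at day 110, 17 to 22 at day 90, 0 to 0 for the age difference, 1271 to 4462 against LW, 417 to 834 against MS, 4 to 55 beyond both purebreds, 3355 to 4915 for MS minus LW, 156 to 347 between crosses, 313 to 546 within MS sows and 228 to 854 within LW sows. Day 90 gave 107 with array weights, 6 with the authors' values, 2 with normexp and 0 with the filter on all arrays. Without the 7 fetuses the other counts that moved were 271 against LW, 337 against MS, 0 beyond both purebreds, 1797 for MS minus LW and 127 for MSLW minus LW, and the signs of the medians of collagens and matrix (0.0826) and of endocytosis and the lysosome (-0.0162) and of SPINK4 (-0.0394) turned. The age difference gave 3 with the authors' values and 1 with normexp. Crossbreds minus LW gave 704 with the stricter threshold, 8772 with array weights, 1011 with median centring and 994 at day 110 alone. Crossbreds minus MS gave 261 with the stricter threshold, 328 with median centring, 364 with the filter on all arrays and 376 at day 110 alone. Beyond both purebreds gave 2 with the stricter threshold, 44 with array weights, 29 with the authors' values, 3 with median centring, 1 at day 110 alone and 24 without LW 484 and 469. MS minus LW gave 2029 with the stricter threshold, 12116 with array weights and 2644 with the filter on all arrays. The crosses gave 104 with the stricter threshold and 117 at day 110 alone. LWMS minus MS (443) gave 181 with the stricter threshold, 707 with array weights, 258 with the filter on all arrays and 268 at day 110 alone. MSLW minus LW (536) gave 144 with the stricter threshold, 945 with slide as a block, 2741 with array weights, 146 with median centring, 311 with no filter, 173 at day 110 alone and 938 without LW 484 and 469. Of the values of single genes and probes in settings other than leaving out 1 fetus, 2159 stayed on their side of the threshold. There 354 lost and 35 gained a call, and 5 changed sign. When 1 fetus was left out at a time, 4786 stayed, 538 lost and 101 gained a call, and 0 changed sign. No paired analysis of crossbred and purebred litter mates was possible because the labels do not name the sow, and the fetus numbers are shared by no groups. Low signal limits genes whose low breed was not above background.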

Other observations

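Genes of hormone and growth axes were also read at day 110. Of 19 genes of the IGF and thyroid axes, 4 were higher and 1 lower at an unadjusted p under 0.05, and none was called. H19, the maternally expressed non-coding RNA next to IGF2, had medians of -2.28 in LW, -2.64 in MS, -2.09 in LWMS and -0.65 in MSLW, a contrast of 1.70 (adjusted p = 0.1061, limma) that was 0.88 without the 7 fetuses that stood apart. DIO1, which activates thyroid hormone, was at 1.31 (0.77 without MS 632) and SGK1, a kinase induced by glucocorticoids, at 1.11, neither passing. Of 9 genes of steroid synthesis only CYP17A1 was called, and CYP11A1, which makes pregnenolone, was at 0.23 (unadjusted p = 0.3264, limma). Plasma proteins usually made by the liver included AMBP at 1.56 and TF, transferrin, at 1.12, with 4 of 11 genes higher and 1 lower at an unadjusted p under 0.05 and none called. GCG, the proglucagon of enteroendocrine cells, was at -1.57 and did not pass.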
